A study of Mus musculus with 34 samples.

Results

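The genes of the interferon response and of antigen presentation were followed in mouse colon tumour organoids as a list of 38 named genes, all of which were found by their gene name among the 54354 genes of the count table. The list held the class I and class II antigen presentation genes, the catalytic subunits of the immunoproteasome, 4 transcription factors of the interferon pathway, 3 cytosolic RNA sensors and the interferon-stimulated genes. RNA from 34 libraries was sequenced after poly(A) selection, in 2 experiments that shared the tumour genotype given as AKP, which the labels do not spell out. In the knockout experiment, control organoids labelled Scrambled (3 libraries) were compared with 2 clones in which CRISPR ribonucleoprotein had been used to disrupt Degs1, the gene of the dihydroceramide desaturase that completes ceramide synthesis (clone1 and clone2, 9 libraries each). In the hairpin experiment, a control hairpin (shControl, 10 libraries) was compared with a hairpin against Yap1, the Hippo pathway coactivator (shYAP, 3 libraries). Each clone is 1 line, and the labels do not say which libraries came from separate cultures, so the p-values measure the spread between libraries, which may be technical.

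Interferons are secreted proteins that signal through surface receptors and JAK kinases. Type I and type III interferons assemble a complex with Stat2 and Irf9 that binds the interferon-stimulated response element in promoters, and type II interferon acts through the gamma-activated site and the induced factor Irf1. The genes they induce restrict viruses, cut proteins into peptides with altered proteasomes and load those peptides on class I molecules, which epithelial cells carry on their surface. Class II molecules are mostly a product of professional antigen-presenting cells, and intestinal epithelium makes them when stimulated by interferon gamma.

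To show what the promoters of these genes hold, windows of 300 bases around the start (250 before and 50 after) were taken from RefSeq on build GRCm38.p6, the mm10 assembly. Of the 38 genes, 28 had 33 windows between them. The interferon-stimulated response element was searched on both strands as GAAA, 2 bases of any kind and GAAA, with overlapping matches allowed, and 12 of the 28 genes with a window (42.9%) held it, against 3.99% of all 27025 genes with a window. The gamma-activated site, searched as TTCNNNGAA on both strands, was in 6 of the 28 (21.4%), against 9.55% of all genes. The 150 bases before the start are printed below for 6 genes, 5′ to 3′ on the strand of the gene, with the matches to the response element in capitals. Oas1a is shown because it had the largest rise in clone2 among the tested genes with a match, B2m because it fell in clone1, and Bst2, Isg15, Ifit1 and Rsad2 because they carry matches and were not higher past the threshold in either clone or in shYAP (Isg15 was too low to be tested).
Oas1a (chr5:120907526-120907675, minus strand, 2 overlapping matches): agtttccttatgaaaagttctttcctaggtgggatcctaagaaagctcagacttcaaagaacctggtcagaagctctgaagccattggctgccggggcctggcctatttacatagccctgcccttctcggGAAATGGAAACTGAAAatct
B2m (chr2:122147537-122147686, plus strand, 1 match): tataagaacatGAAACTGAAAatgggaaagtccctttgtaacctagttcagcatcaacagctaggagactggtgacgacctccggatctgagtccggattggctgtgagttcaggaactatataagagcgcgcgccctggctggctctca
Bst2 (chr8:71537473-71537622, minus strand, 2 overlapping matches): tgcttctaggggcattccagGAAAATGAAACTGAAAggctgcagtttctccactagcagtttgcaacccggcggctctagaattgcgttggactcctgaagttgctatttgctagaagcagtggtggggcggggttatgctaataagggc
Isg15 (chr4:156200819-156200968, minus strand, 3 overlapping matches): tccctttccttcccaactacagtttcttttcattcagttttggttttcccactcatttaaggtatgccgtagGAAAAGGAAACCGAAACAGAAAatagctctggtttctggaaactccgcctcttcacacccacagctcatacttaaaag
Ifit1 (chr19:34640739-34640888, plus strand, 2 matches read on the other strand): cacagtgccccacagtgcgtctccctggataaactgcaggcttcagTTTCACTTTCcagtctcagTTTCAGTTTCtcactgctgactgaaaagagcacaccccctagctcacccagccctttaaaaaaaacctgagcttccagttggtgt
Rsad2 (chr12:26456453-26456602, minus strand, 1 match read on the other strand): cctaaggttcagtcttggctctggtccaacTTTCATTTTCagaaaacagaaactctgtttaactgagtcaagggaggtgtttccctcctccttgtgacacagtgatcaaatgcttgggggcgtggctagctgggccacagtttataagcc
A match is a stretch of letters and not a measured binding site.

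Total counts per library ran from 883253 to 6597099. The 2 shallow libraries were clone1 replicate 2 and shControl replicate 3, and the others had at least 2470845. Levels below are CPM, counts per 1000000 of the library total after scaling with edgeR's trimmed mean of M-values (TMM), and are compared between groups of libraries and not between genes, since they are not divided by transcript length. Degs1 stood at 7.72 ± 2.62 CPM in Scrambled (SD, n = 3), at 2.41 ± 1.32 in clone1 (n = 9) and at 1.71 ± 0.892 in clone2 (n = 9), a fall past the threshold in both clones. Yap1 stood at 16.5 ± 4.13 CPM in shControl (n = 10) and at 19.04 ± 1.12 in the libraries labelled shYAP (n = 3), so its mRNA was not lower there. In the same libraries Degs1 stood at 5.23 ± 1.67 CPM in shControl and at 14.7 ± 4.20 in shYAP. That rise of Degs1 was 1.47 ± 0.29 on the log2 scale (edgeR adjusted p = 0.00205). Within shControl and both clones, libraries with neighbouring numbers resembled one another, and values are given for these runs of libraries where they differ. Tests are two-sided edgeR quasi-likelihood tests over all genes, a gene is called past the threshold at a Benjamini-Hochberg adjusted p under 0.05, and log2 fold changes carry their standard error.

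The organoid libraries held epithelial RNA and little of any other cell type. The 7 epithelial markers summed to between 1652 CPM in a shYAP library and 3351 in a clone1 library. Of 12 immune markers, Cd3e, Cd3g, Ms4a1, Itgax and Flt3 had no count in any library, Ptprc had 17 counts over all 34 libraries, and the sum ran from 12.3 to 40.8 CPM, nearly all of it Cd68. The summed immune markers ranged from 31.6 to 38.5 CPM in Scrambled, from 17.4 to 31.4 in clone2, from 22.8 to 28.9 in clone1, from 14.5 to 40.8 in shControl and from 12.3 to 14.8 in shYAP, and their part in the results below was not tested. Of 7 fibroblast markers, Col1a2, Col3a1 and Pdgfrb had no count, and Dcn had the most, 15 over all 34 libraries. Of 4 endothelial markers, Cdh5 and Kdr had none, Tek had 4 counts and Pecam1 had 163. The group means of Pecam1 ran from 0.734 CPM in clone2 to 1.88 in shYAP. In bulk RNA, fewer cells of a type and less RNA per cell cannot be told apart.

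Of the 38 genes, 24 had enough counts for a test in at least 1 experiment and 14 did not. The untested genes were Tap1 and Tap2, the peptide transporters (70 and 54 counts over all 34 libraries), Psmb8 (34), the class I transactivator Nlrc5 (0), the class II genes Cd74 (13), H2-Aa (7) and Ciita (10), the sensor Dhx58 (53), the effectors Isg15 (51), Ifit2 (116), Ifit3 (26) and Oasl2 (78), and the guanylate binding proteins Gbp2 (5) and Gbp3 (9). Their group means reached at most 1.24 CPM, for Ifit2 in shControl. Cd74, the invariant chain of class II, was listed at 0.462, 0 and 0.406 CPM in the Scrambled libraries, at 0 in all 9 clone1 and all 3 shYAP libraries, at most at 0.220 in clone2 and at most at 0.528 in shControl. Psmb8 was above 1 CPM in 1 library, a clone2 library with 4.32 CPM. Isg15, whose promoter stretch printed above holds 3 matches, reached at most 0.785 CPM in any library. None of the 8 interferon genes looked up could be tested: Ifnb1, Ifna4, Ifna5, Ifnk, Ifnl2 and Ifnl3 had no count, and Ifng and Ifne had 1 and 6. Other interferon genes were not examined.

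Against Scrambled, the share of members called in clone2 was close to the share over all genes, and those calls were all rises. In clone1 the calls were split between rises and falls. In clone2, 8 of the 23 tested members rose (34.8%) and none fell, beside 33.1% of all 11514 genes past the threshold (16.5% higher, 16.6% lower), and the median change of the 23 was 0.47 on the log2 scale against -0.03 over all genes. In clone1, 5 rose and 5 fell (43.5% of the 23), beside 12.7% of all genes (5.96% higher, 6.71% lower), with a median of -0.33 against 0.03. H2-K1, Ifi27, Ifi35 and Xaf1 rose in both clones, no member fell in both, and Oas1a fell in clone1 and rose in clone2. The 2 comparisons share the same 3 Scrambled libraries. Of the 7 epithelial markers, 3 rose and none fell in clone1, while 1 rose and 4 fell in clone2, and their part in these counts was not tested. With both clones weighted equally, 6 members rose (Ifi27, H2-K1, Xaf1, Ifi35, Tapbp and Oas1a) and Rsad2 fell, beside 17.6% of all genes (8.4% higher, 9.21% lower). With 1 Scrambled library left out, the number of calls in clone1 was 4, 4 and 5 instead of 10 (without replicate 1, 2 and 3), and without replicate 2 the number with both clones weighted equally was 4 instead of 7. Over all genes the calls in clone1 were 804, 779 and 1025 instead of 1459 in the same settings. With both clones weighted equally and without replicate 2 they were 1208 instead of 2027.

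With both clones weighted equally, the largest change among members whose mean log2 CPM reached 1 was that of Ifi27, 1.73 ± 0.31 on the log2 scale (edgeR adjusted p = 4.26e-04). H2-K1 followed with the smaller and tighter rise of 0.53 ± 0.12 (edgeR adjusted p = 0.00123). Both calls held without any 1 of the Scrambled libraries. The other calls each missed the threshold without at least 1 of them. Tapbp (0.75 ± 0.21, edgeR adjusted p = 0.0114) was at 0.68 without replicate 1 or 2 (edgeR adjusted p = 0.0840 and 0.0907). Oas1a (0.75 ± 0.24, edgeR adjusted p = 0.0288), whose clones went opposite ways, was at 0.59 without replicate 2 (edgeR adjusted p = 0.215) and at 0.71 without replicate 3 (edgeR adjusted p = 0.116). Xaf1 (0.50 ± 0.13, edgeR adjusted p = 0.00522) was at 0.44 without replicate 2 (edgeR adjusted p = 0.0661), and Ifi35 (0.52 ± 0.14, edgeR adjusted p = 0.00629) was at 0.48 without replicate 3 (edgeR adjusted p = 0.0560). Rsad2 (-1.76 ± 0.57, edgeR adjusted p = 0.0260) was at -1.63 and -1.51 without replicate 2 and 3 (edgeR adjusted p = 0.159 and 0.183).

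**Figure D1:**
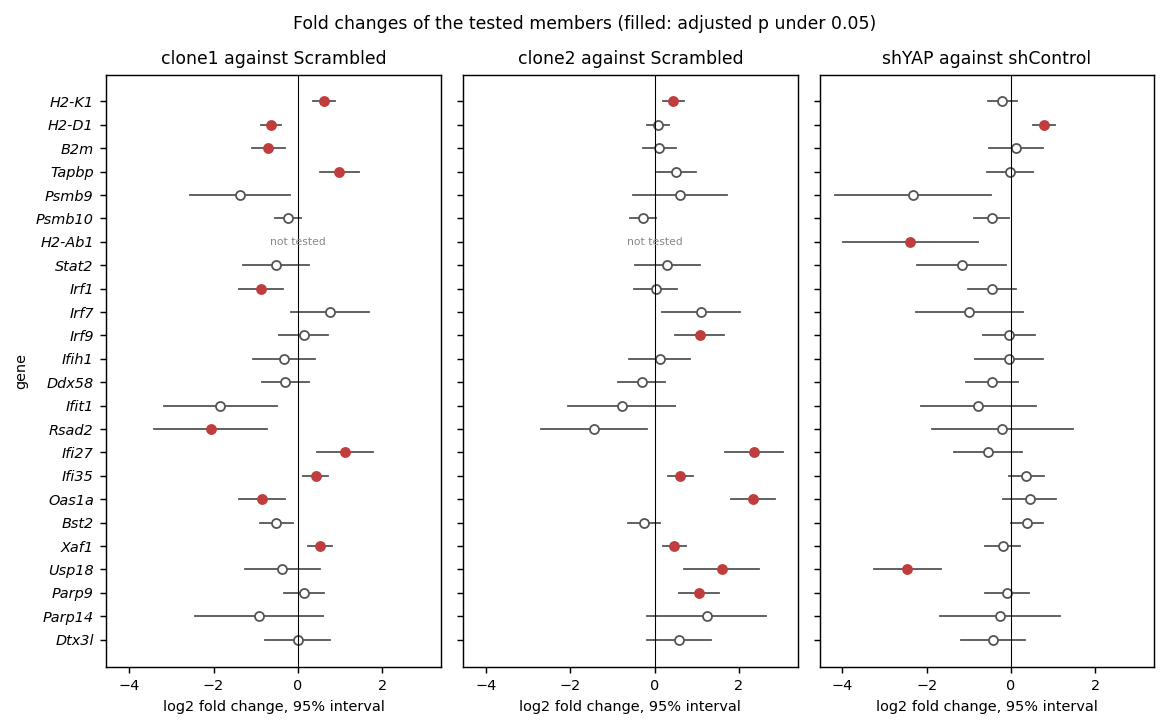
Log2 fold change with its 95% interval for each of the 24 tested members (rows) in clone1 against Scrambled, clone2 against Scrambled and shYAP against shControl (panels), with filled points for an adjusted p under 0.05. Oas1a lies at -0.85 in clone1 and at 2.34 in clone2, and H2-D1 is the filled point above 0 in the shYAP panel.

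The class I chains did not move together in clone1, where H2-K1 rose while H2-D1 and B2m fell. H2-K1 and H2-D1 encode the heavy chains that hold the peptide, both in the major histocompatibility complex on chromosome 17 (H2-K1 at chr17:33996017-34000347 and H2-D1 at chr17:35262730-35267499 in mm10), and B2m on chromosome 2 (chr2:122147686-122153083) encodes the light chain they share. H2-K1 stood at 109, 110.1 and 98.4 CPM in the Scrambled libraries, between 129 and 192 in clone1 (median 168) and between 115 and 166 in clone2 (median 149.9). All libraries of both clones lay above all Scrambled libraries. The rise was 0.62 ± 0.13 on the log2 scale in clone1 (edgeR adjusted p = 7.05e-04) and 0.45 ± 0.12 in clone2 (edgeR adjusted p = 0.00503), and the clones did not differ past the threshold from each other (-0.17 ± 0.09, 95% interval -0.35 to 0.002).

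H2-D1 went the other way in clone1. It stood at 140.2, 141 and 115 CPM in Scrambled, between 65.2 and 105 in clone1 (median 85.7) and between 121 and 171 in clone2 (median 133). All 9 clone1 libraries lay below the Scrambled and below the clone2 libraries, while clone2 overlapped with Scrambled. The fall in clone1 was -0.63 ± 0.12 on the log2 scale (edgeR adjusted p = 2.92e-04), the change in clone2 was 0.08 ± 0.12, and clone2 was above clone1 by 0.71 ± 0.09 (edgeR adjusted p = 1.82e-08). The counts of H2-K1 per count of H2-D1 were 0.804 ± 0.0443 in Scrambled (SD, n = 3), 1.92 ± 0.203 in clone1 (n = 9) and 1.04 ± 0.170 in clone2 (n = 9), while the sum of both genes stood at 238 ± 21.1, 246 ± 31.2 and 288 ± 27.8 CPM. Of the 31-base stretches of H2-D1 transcripts, 26.7% also occur in other genes, 13.8% in H2-K1, so part of the split between them rests on how the authors' counting assigned shared sequence.

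B2m, the light chain, followed H2-D1 in clone1. It stood at 114, 111 and 114 CPM in Scrambled, between 56.3 and 83.7 in clone1 (median 72.5) and between 83.0 and 168 in clone2 (median 114). All clone1 libraries were below all Scrambled libraries, and the fall was -0.70 ± 0.19 on the log2 scale (edgeR adjusted p = 0.0136). Without Scrambled replicate 1, 2 or 3 the change of B2m in clone1 kept its size at -0.70, with edgeR adjusted p = 0.0575, 0.0582 and 0.0513. B2m did not change past the threshold in clone2 (0.11 ± 0.19), where its level went by runs: 107 CPM on average in replicates 1 and 2, 161 in replicates 3 to 6 and 86.3 in replicates 7 to 9. Against clone2 replicates 7 to 9 alone, B2m was below Scrambled, at a log2 value of -0.39 (edgeR adjusted p = 0.00187), the opposite sign of the value over all clone2 libraries.

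**Figure D2:**
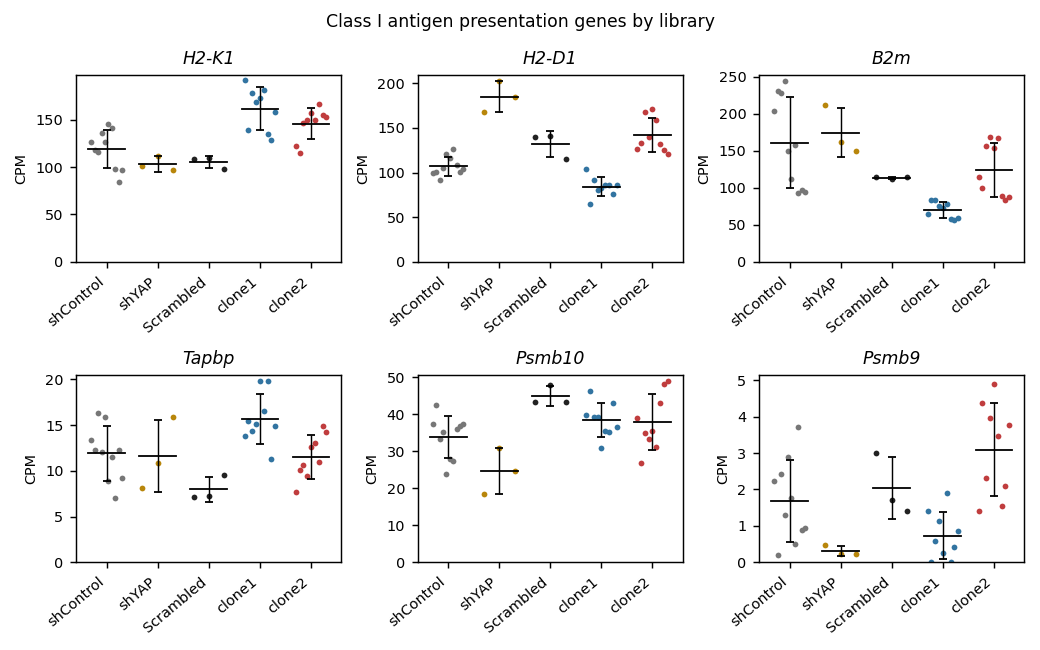
Level in CPM of 6 class I antigen presentation genes (panels) in each library (points), by group, with the mean and SD as horizontal line and bar. H2-K1 is above Scrambled in every library of both clones, H2-D1 and B2m are below Scrambled in every clone1 library, and the 3 shYAP libraries lie above all shControl libraries for H2-D1.

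Of the genes that bring peptides to class I molecules, Tapbp alone had enough counts for a test. It encodes tapasin, which holds the empty class I molecule beside the peptide transporter. Tapbp stood at 7.16, 7.26 and 9.53 CPM in Scrambled, between 11.3 and 19.8 in clone1 (median 15.2) and between 7.63 and 14.9 in clone2 (median 11.01). Clone1 lay above Scrambled in every library, a rise of 0.98 ± 0.23 on the log2 scale (edgeR adjusted p = 0.00295), and clone2 overlapped with Scrambled (0.52 ± 0.22). Tapbp was at 11.9 ± 2.96 CPM in shControl (SD, n = 10), and with shControl in place of Scrambled the clone1 value was 0.39 (edgeR adjusted p = 0.0743). Clone2 was below clone1 for Tapbp, at -0.46 ± 0.15 (edgeR adjusted p = 0.0118), and at -0.17 (edgeR adjusted p = 0.603) between replicates 7 to 9 of both clones.

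The immunoproteasome subunits replace the constitutive catalytic subunits when cells meet interferon. Psmb10 was at 44.9 ± 2.72 CPM in Scrambled (SD, n = 3), 38.4 ± 4.61 in clone1 (n = 9) and 37.9 ± 7.60 in clone2 (n = 9), with no change past the threshold in either clone. Psmb9 stood at 3.003, 1.70 and 1.42 CPM in Scrambled, between 0 and 1.90 in clone1 (median 0.584) and between 1.41 and 4.91 in clone2 (median 3.47). Neither clone differed from Scrambled past the threshold, and clone2 exceeded clone1 by a log2 difference of 1.98 ± 0.44 (edgeR adjusted p = 2.92e-04), with overlapping libraries. The start of Psmb9 overlaps that of Tap1 on the other strand, with the same limit on assigning reads as for Parp9 and Dtx3l below. Of the 5 constitutive counterparts, 2 fell and 0 rose in each clone (40%), beside 12.7% of all genes in clone1 and 33.1% in clone2. Psmb5 fell in both clones (-0.54 ± 0.12 in clone1, edgeR adjusted p = 0.00121, and -0.51 ± 0.12 in clone2, edgeR adjusted p = 6.09e-04), and Psmb7 fell in clone1 (-0.62 ± 0.18, edgeR adjusted p = 0.0286).

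Of the 4 transcription factors of the pathway, Irf9, Irf1 and Stat2 were higher in clone2 than in clone1, beside 23.6% of all genes, and Irf7 did not differ past the threshold. Irf9, the DNA-binding part of the complex with Stat2, stood at 7.16, 6.95 and 7.71 CPM in Scrambled, between 4.21 and 13.3 in clone1 (median 7.34) and between 11.6 and 21.19 in clone2 (median 13.7). All clone2 libraries lay above all Scrambled libraries and overlapped with clone1. The rise in clone2 was 1.08 ± 0.29 on the log2 scale (edgeR adjusted p = 0.00334), and clone2 was above clone1 by 0.94 ± 0.20 (edgeR adjusted p = 1.53e-04). Irf9 was at 13.2 ± 4.73 CPM in shControl (SD, n = 10), and with shControl as the reference the clone2 value was 0.23 (edgeR adjusted p = 0.386).

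Irf1, the factor induced by interferon gamma, stood at 20.1, 18.4 and 12.4 CPM in Scrambled, between 7.02 and 12.2 in clone1 (median 8.18) and between 8.96 and 26.8 in clone2 (median 16.1). Clone1 lay below Scrambled in every library, with a fall of -0.88 ± 0.25 on the log2 scale (edgeR adjusted p = 0.0169). Without Scrambled replicate 1 the value for Irf1 in clone1 was -0.75 (edgeR adjusted p = 0.128) and without replicate 2 it was -0.80 (edgeR adjusted p = 0.112). In clone2 the mean of Irf1 was 9.99 CPM in replicates 1 and 2, 16.3 in replicates 3 to 6 and 23.8 in replicates 7 to 9, and the change against Scrambled was 0.03 ± 0.25.

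Irf7, the factor that amplifies the type I response, was low and spread widely. It stood at 1.39, 3.55 and 1.01 CPM in Scrambled, between 1.39 and 5.64 in clone1 (median 3.65) and between 2.19 and 6.57 in clone2 (median 3.64). The groups overlapped, and the change was 0.76 ± 0.46 in clone1 (edgeR adjusted p = 0.307) and 1.10 ± 0.45 in clone2 (edgeR adjusted p = 0.0568), and clone2 stood at 0.34 ± 0.30 against clone1 (edgeR adjusted p = 0.368). Without Scrambled replicate 2, the library with 3.55 CPM, the clone2 value of Irf7 was 1.89 (edgeR adjusted p = 0.0155). Stat2, the partner of Irf9, was at 4.17 ± 1.46 CPM in Scrambled, 2.70 ± 1.41 in clone1 and 5.22 ± 1.72 in clone2 (SD, n = 3, 9 and 9), with clone2 above clone1 by a log2 difference of 0.82 ± 0.28 (edgeR adjusted p = 0.0153). That call for Stat2 was lost in limma with the runs of libraries as a random block (adjusted p = 0.0960) and, in edgeR, within replicates 1 to 6 (0.82, adjusted p = 0.0578) and within replicates 7 to 9 (0.79, adjusted p = 0.162). The RNA sensors Ddx58 (RIG-I) and Ifih1 (MDA5) did not change past the threshold in either clone, with values of -0.29 ± 0.28 and -0.33 ± 0.36 in clone1 and of -0.30 ± 0.28 and 0.12 ± 0.36 in clone2.

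Among the antiviral effectors, Ifi27 and Oas1a had the largest rises in clone2. Ifi27 (chr12:103434211-103440239), an interferon-induced membrane protein of the mitochondrion and nuclear envelope, stood at 19.2, 18.8 and 16.4 CPM in Scrambled, between 20.2 and 62.4 in clone1 (median 34.8) and between 65.5 and 112 in clone2 (median 93.2). Every clone2 library lay above every clone1 library, and every clone1 library above Scrambled. The rise in clone2 was 2.35 ± 0.33 on the log2 scale, 5.10-fold (edgeR adjusted p = 1.19e-05), and it was past the threshold under each of the alternatives run for it. In clone1 it was 1.11 ± 0.32 (edgeR adjusted p = 0.0227), and the level there went by runs, with a mean of 47.8 CPM in replicates 1 to 6 and 21.6 in replicates 7 to 9. Against clone1 replicates 7 to 9 alone the Ifi27 value was 0.24 (edgeR adjusted p = 0.440). Without Scrambled replicate 1, 2 or 3 the clone1 value of Ifi27 was 1.14, 1.15 and 1.04, with edgeR adjusted p = 0.0799, 0.0897 and 0.104. Ifi27 in shControl ranged from 15.2 to 72.2 CPM, and with shControl as the reference the clone1 value was 0.10 (edgeR adjusted p = 0.844).

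Oas1a (chr5:120896256-120907521), a synthetase of the oligoadenylates that switch on RNase L, had the largest difference between the clones among the tested members. It stood at 7.62, 4.63 and 5.68 CPM in Scrambled, between 1.11 and 6.24 in clone1 (median 2.58) and between 23.7 and 36.6 in clone2 (median 29.9). Every clone2 library was above every library of the other 4 groups, where the highest was a shControl library with 10.6 CPM. The rise in clone2 was 2.34 ± 0.26 on the log2 scale, 5.07-fold (edgeR adjusted p = 4.09e-09), and clone2 was above clone1 by 3.19 ± 0.19, 9.16-fold (edgeR adjusted p = 7.57e-17). In clone1 the change of Oas1a was -0.85 ± 0.27 (edgeR adjusted p = 0.0300), and the libraries overlapped with Scrambled. Without Scrambled replicate 1 or 3 it was -0.66 (edgeR adjusted p = 0.224) and -0.88 (edgeR adjusted p = 0.0734). Oas1a shares 68.7% of its 31-base stretches with the neighbouring copy Oas1g, so its own count is uncertain. The sum of both copies was 6.23 ± 1.64 CPM in Scrambled, 3.21 ± 1.54 in clone1 and 33.02 ± 5.73 in clone2 (SD, n = 3, 9 and 9).

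Xaf1 and Ifi35 rose by smaller amounts. Xaf1, which binds the apoptosis inhibitor Xiap, stood at 48.0, 44.5 and 53.5 CPM in Scrambled, between 56.0 and 84.5 in clone1 (median 65.0) and between 56.6 and 78.5 in clone2 (median 70.4). All libraries of both clones lay above Scrambled, with rises of 0.53 ± 0.14 (edgeR adjusted p = 0.00789) and 0.47 ± 0.14 (edgeR adjusted p = 0.00685) on the log2 scale. Without Scrambled replicate 2 the values for Xaf1 were 0.47 (edgeR adjusted p = 0.0786) in clone1 and 0.41 (edgeR adjusted p = 0.0584) in clone2, and without replicate 1 the clone1 value was 0.51 (edgeR adjusted p = 0.0528). The level of Xaf1 in shControl was 64.1 ± 16.8 CPM (SD, n = 10), and with shControl as the reference the clones stood at 0.11 and 0.08 (edgeR adjusted p = 0.588 and 0.623).

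Ifi35 stood at 34.6, 37.4 and 33.5 CPM in Scrambled, between 34.3 and 60.8 in clone1 (median 45.2) and between 50.2 and 60.4 in clone2 (median 54.3). Clone2 lay above Scrambled in every library and clone1 overlapped with it. The rise of Ifi35 in clone2 was 0.62 ± 0.15 on the log2 scale (edgeR adjusted p = 0.00110). In clone1 it was 0.42 ± 0.15 (edgeR adjusted p = 0.0497), a value that missed the threshold in 12 of the 15 alternatives, among them without Scrambled replicate 1, 2 or 3 (0.41, 0.48 and 0.38, with edgeR adjusted p = 0.169, 0.0994 and 0.187).

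The other 3 tested effectors did not rise past the threshold. Bst2, or tetherin, which holds budding viruses at the cell surface, was at 31.2, 25.6 and 24.3 CPM in Scrambled, between 13.6 and 31.05 in clone1 (median 17.5) and between 18.9 and 27.3 in clone2 (median 22.4). The libraries overlapped, and the changes were -0.52 ± 0.19 (edgeR adjusted p = 0.0721) and -0.25 ± 0.19 (edgeR adjusted p = 0.326). Rsad2, or viperin, had a mean log2 CPM below 1 and stood at 1.15, 2.63 and 3.04 CPM in Scrambled, between 0 and 2.21 in clone1 and between 0.282 and 1.77 in clone2. Its fall in clone1, -2.07 ± 0.66 on the log2 scale (edgeR adjusted p = 0.0306), missed the threshold without Scrambled replicate 2 (-1.94, edgeR adjusted p = 0.161) or replicate 3 (-1.82, edgeR adjusted p = 0.167). Ifit1, a sensor of foreign RNA caps, stood at 2.54, 2.93 and 1.83 CPM in Scrambled and between 0 and 1.68 in clone1, below Scrambled in every library, with a change of -1.84 ± 0.66 (edgeR adjusted p = 0.0619). Beside the rises of Ifi27 and Oas1a in clone2, Ifit1 and Rsad2 had negative values there, -0.77 ± 0.63 and -1.44 ± 0.62, neither past the threshold.

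**Figure D3:**
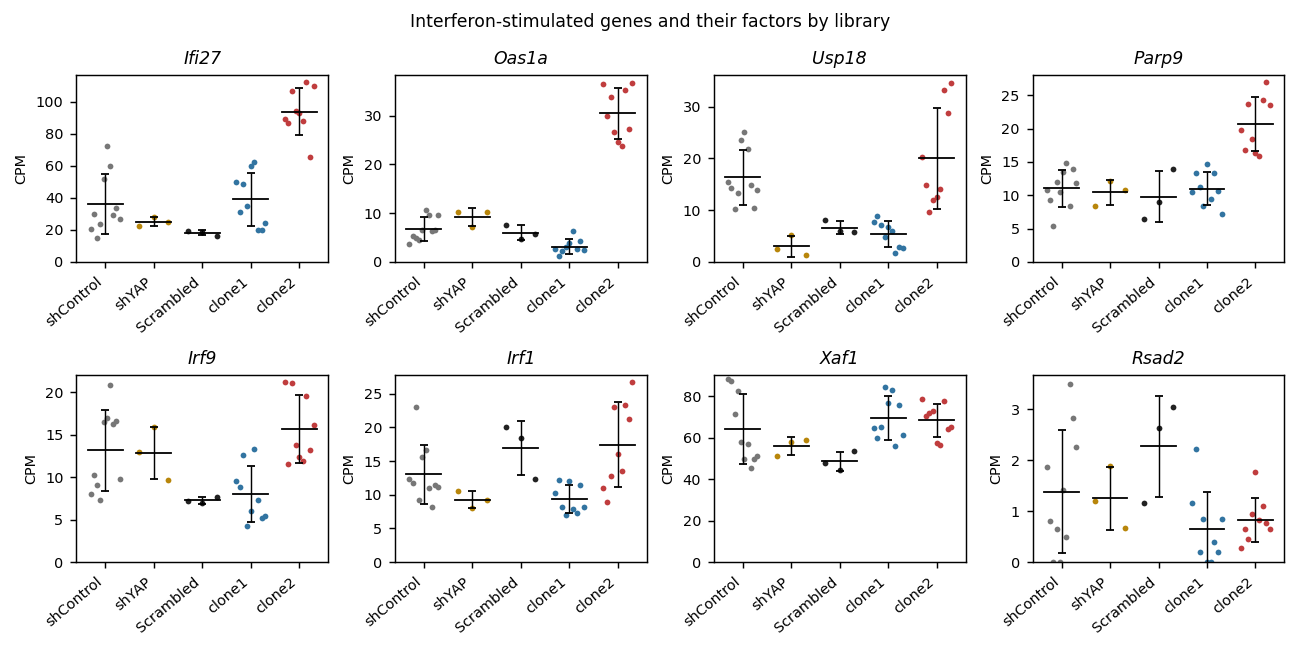
Level in CPM of 8 interferon-stimulated genes and factors (panels) in each library (points), by group, with the mean and SD as horizontal line and bar. Every clone2 library stands above all other libraries for Oas1a, and Ifi27 in clone1 lies between 20.2 and 24.4 CPM in 3 libraries and between 30.96 and 62.4 in the other 6.

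Of the 4 regulators of the response, 2 rose in clone2, beside 16.5% of all genes, and none changed past the threshold in clone1, beside 12.7%. Usp18, which strips Isg15 from proteins and damps the type I receptor, stood at 8.08, 6.02 and 5.68 CPM in Scrambled, between 1.79 and 8.84 in clone1 (median 5.97) and between 9.72 and 34.5 in clone2 (median 14.9). Every clone2 library lay above every Scrambled and every clone1 library. The rise in clone2 was 1.59 ± 0.43 on the log2 scale (edgeR adjusted p = 0.00561), and clone2 was above clone1 by 1.96 ± 0.30 (edgeR adjusted p = 9.16e-06). Within clone2 the mean of Usp18 was 17.6 CPM in replicates 1 and 2, 12.1 in replicates 3 to 6 and 32.2 in replicates 7 to 9. In shControl it was at 16.3 ± 5.31 CPM (SD, n = 10), and with shControl as the reference the clone2 value was 0.29 (edgeR adjusted p = 0.374).

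Parp9, a mono-ADP-ribosyltransferase that works with the ubiquitin ligase Dtx3l, stood at 6.47, 8.96 and 14.0 CPM in Scrambled, between 7.12 and 14.6 in clone1 (median 10.7) and between 15.9 and 27.0 in clone2 (median 19.8). Clone2 lay above Scrambled and clone1 in every library, by 1.05 ± 0.24 (edgeR adjusted p = 6.09e-04) and 0.91 ± 0.16 (edgeR adjusted p = 1.52e-05) on the log2 scale, and these values of Parp9 stayed past the threshold under each alternative run for them. Dtx3l (chr16:35926511-35939151, minus strand) overlaps the start of Parp9 (chr16:35938470-35972605, plus strand), and without the strand setting of the counting the reads of that overlap cannot be told apart. Dtx3l was at 5.02 ± 1.64, 4.84 ± 2.83 and 7.49 ± 1.93 CPM (SD, n = 3, 9 and 9) and did not change past the threshold, with 0.58 ± 0.37 in clone2. Parp14, a further ADP-ribosyltransferase with a mean log2 CPM below 1, was above clone1 in clone2 by 2.17 ± 0.53 (edgeR adjusted p = 9.12e-04), at 2.58 ± 1.02 against 0.701 ± 0.822 CPM (SD, n = 9 each).

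Between the clones, 11 of 23 members were higher in clone2 and 1 was lower (52.2%), beside 49.1% of all genes past the threshold (23.6% higher, 25.5% lower). The median of the members was 0.71 on the log2 scale and that of all genes -0.05. The rises were those of Oas1a, Parp14, Psmb9, Usp18, Ifi27, Irf9, Parp9, Irf1, Stat2, B2m and H2-D1, and the member that was lower was Tapbp. The share of called members was close to the share over all genes, while 11 of the 12 calls went up. Of 69 other tested genes of the pathway, 17 were higher in clone2 and 18 lower (50.7%), with a median of -0.02. Among them were 22 other interferon-stimulated genes, of which 7 were higher and 6 lower (59.1%), also with a median of -0.02. For Oas1a, Ifi27, Usp18, Parp9 and H2-D1 no clone2 library overlapped with clone1. The share of all genes without such an overlap was not computed.

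In the libraries labelled shYAP, 1 of 24 tested members rose and 2 fell (12.5%), beside 11.4% of all 11094 genes (5.47% higher, 5.9% lower). The median of the members was -0.24 on the log2 scale, and that of all genes -0.05. H2-D1 rose: it ranged from 91.6 to 126 CPM in shControl (median 105) and stood at 168, 203 and 185 in shYAP. All 3 shYAP libraries were above all 10 shControl libraries, with a log2 change of 0.78 ± 0.13 (edgeR adjusted p = 4.25e-04). H2-K1 ranged from 84.7 to 146 CPM in shControl (median 122) and stood at 101, 112 and 96.6 in shYAP, a change of -0.21 ± 0.16 that was not past the threshold (95% interval -0.54 to 0.13). The counts of H2-K1 per count of H2-D1 were 1.11 ± 0.167 in shControl (SD, n = 10) and 0.560 ± 0.0408 in shYAP (n = 3).

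Usp18 fell in the libraries labelled shYAP. It ranged from 10.3 to 25.1 CPM in shControl (median 14.6) and stood at 2.39, 5.204 and 1.32 in shYAP, with no overlap. The change was -2.46 ± 0.38 on the log2 scale (edgeR adjusted p = 2.26e-04). H2-Ab1, the beta chain of a class II molecule, ranged from 0.404 to 9.27 CPM in shControl (median 2.99) and stood at 0.239, 0.710 and 0.882 in shYAP, with overlapping libraries and a change of -2.39 ± 0.77 (edgeR adjusted p = 0.0475). That call was lost without shYAP replicate 1, 2 or 3 (H2-Ab1 at -2.02, -2.49 and -2.76, with edgeR adjusted p = 0.193, 0.149 and 0.114), and the mean of H2-Ab1 was 6.04 CPM in shControl replicates 5 to 7 against 1.90 in replicates 1 to 4. In the knockout experiment H2-Ab1 was too low to be tested, at 0.693, 1.39 and 1.01 CPM in Scrambled and at most 0.595 and 0.847 in clone1 and clone2. The other class II genes of the list were not tested in any group.

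B2m in the hairpin experiment followed the runs of shControl. Its mean was 226 CPM in shControl replicates 1 to 4, 139.6 in replicates 5 to 7 and 94.6 in replicates 8 to 10, while the shYAP libraries stood at 212, 162 and 149.7. Over all shControl libraries the change of B2m was 0.11 ± 0.30 on the log2 scale. Against replicates 1 to 4 alone it was -0.39 (edgeR adjusted p = 0.0354), and against replicates 5 to 10 alone it was 0.57 (edgeR adjusted p = 0.0482), so the sign of B2m went with the control libraries used. Psmb9 stood at 0.479, 0.237 and 0.221 CPM in shYAP and between 0.202 and 3.73 in shControl (median 1.54), a change of -2.32 ± 0.89 (edgeR adjusted p = 0.0937). Psmb10 stood at 18.4, 30.7 and 24.7 CPM in shYAP and between 23.98 and 42.4 in shControl (median 35.6), with -0.46 ± 0.20 (edgeR adjusted p = 0.130). Ifi27, Oas1a, Xaf1, Ifi35, Bst2, Parp9, Irf1 and Irf9 did not change past the threshold there, with values from -0.54 to 0.44.

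The knockout and hairpin effects were then compared within 1 fit of all 34 libraries. The knockout effect minus the shYAP effect was past the threshold for 6 of 24 members (25%), beside 18.8% of all 11960 genes (9.84% higher, 9% lower). It was positive for Usp18 (3.08 ± 0.60, edgeR adjusted p = 3.34e-04), Ifi27 (2.28 ± 0.51, edgeR adjusted p = 0.00200), H2-K1 (0.74 ± 0.19, edgeR adjusted p = 0.00526) and Xaf1 (0.70 ± 0.23, edgeR adjusted p = 0.0273). It was negative for H2-D1 (-1.05 ± 0.16, edgeR adjusted p = 8.24e-06) and Bst2 (-0.76 ± 0.25, edgeR adjusted p = 0.0293). Bst2 stood at 34.5, 29.8 and 31.1 CPM in shYAP and between 18.4 and 32.0 in shControl (median 24.3), a change of 0.37 ± 0.18 that was not past the threshold by itself. The calls for Bst2 and Xaf1 were each lost in 7 of 17 alternatives, among them without Scrambled replicate 1 (Bst2 -0.65, edgeR adjusted p = 0.110; Xaf1 0.69, edgeR adjusted p = 0.0686), without Scrambled replicate 2 (-0.78 and 0.65, edgeR adjusted p = 0.0533 and 0.0882) and without shYAP replicate 1 (-0.70 and 0.64, edgeR adjusted p = 0.0841 and 0.0879). H2-K1 missed the threshold in limma with the runs of libraries as a random block (0.68, adjusted p = 0.0565). Bst2 also missed it without shYAP replicate 3 (-0.77, edgeR adjusted p = 0.0557), and Xaf1 without shYAP replicate 2 (0.73, edgeR adjusted p = 0.0546).

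The control lines of the 2 experiments were set side by side for their starting levels. No member of 24 differed past the threshold between Scrambled and shControl in edgeR's test, beside 2.96% of all genes (1.76% higher, 1.2% lower). At an unadjusted p under 0.05 in edgeR there were 8 members, and the share of all genes at that level was not computed. DESeq2 called 1 member, beside 504 calls over all genes, and limma called 0. Line, delivery and experiment cannot be told apart here. Usp18 was lower in all 3 Scrambled libraries than in any shControl library (-1.31 ± 0.40 on the log2 scale, edgeR adjusted p = 0.0647), and Psmb10 was higher in all 3 (0.41 ± 0.16, edgeR adjusted p = 0.176).

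A score over the 38 genes, the mean of their log2 CPM after centring each gene on the mean of the 5 groups (prior count 2), was 0.265 ± 0.115 in clone2 (SD, n = 9), 0.145 ± 0.177 in shControl (n = 10), -0.0115 ± 0.0532 in Scrambled (n = 3), -0.158 ± 0.0197 in shYAP (n = 3) and -0.240 ± 0.140 in clone1 (n = 9). Every clone2 library lay above every clone1 and every Scrambled library, and clone2 and Scrambled each overlapped with shControl. The overlap of shControl with clone1 and shYAP came from shControl replicate 3 alone (-0.250), a shallow library, and the other 9 shControl libraries lay above every clone1 and shYAP library. The separation of clone2 from Scrambled was lost at a prior count of 0.5. There clone2 replicates 1 and 2 (0.0521 and 0.0811) lay below Scrambled replicate 3 (0.126). By role, the sum of the 11 antiviral effectors was 274 ± 26.1 CPM in clone2, 181 ± 29.2 in clone1, 142 ± 4.76 in Scrambled, 178 ± 18.17 in shControl and 178 ± 5.44 in shYAP. The 4 regulators summed to 50.7 ± 14.5, 21.9 ± 6.001, 22.5 ± 4.90, 34.5 ± 9.03 and 18.8 ± 3.18 CPM in the same order. The sums are weighted towards the genes with the most counts. No test was made on the score or the sums, since the members were chosen with results of these data known.

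**Figure D4:**
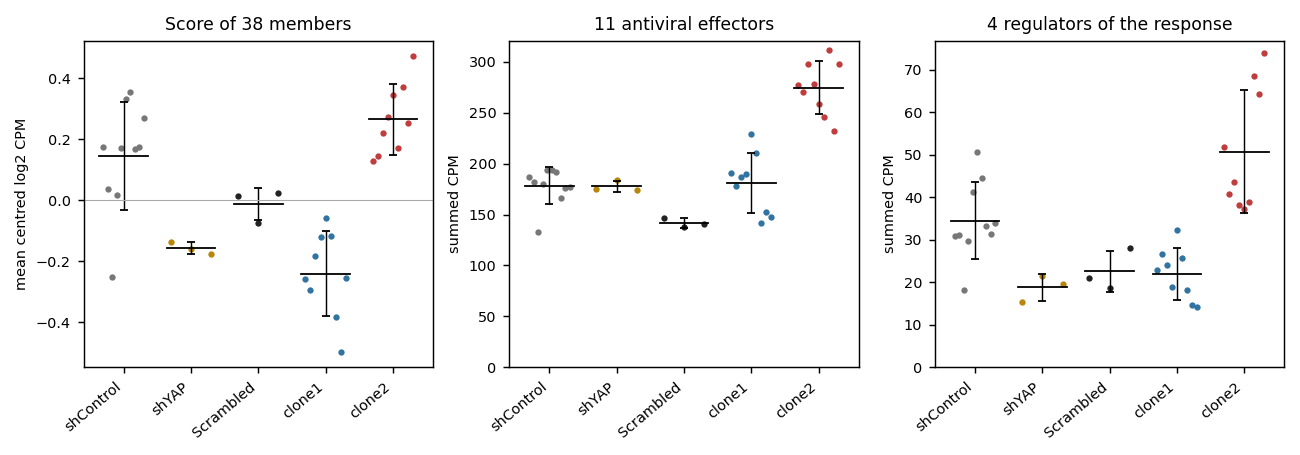
Score of the 38 genes in each library (left; mean centred log2 CPM), summed CPM of the 11 antiviral effectors (middle) and of the 4 regulators (right), by group, with the mean and SD as horizontal line and bar. Clone2 holds the highest group mean in the 3 panels, and its effector sums, from 232 to 312 CPM, lie above those of every other library.

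The promoter matches were then set beside the calls, as a description. Of the 8 members higher in clone2, 5 had a promoter window, and 1 of them, Oas1a, held the response element. Of the 15 members not past the threshold in clone2, 14 had a window and 7 held it, namely B2m, Bst2, Ddx58, Ifih1, Ifit1, Rsad2 and Stat2. In clone1, 5 of the members that fell had a window, and 3 of them held it (B2m, Oas1a and Rsad2), as did 5 of the 10 with a window that were not past the threshold and 0 of the 4 that rose. Ifi27, Usp18 and Parp9 had no window in the table.

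Of 113 other genes of the pathway listed beside the members, 69 were tested in the knockout experiment. In clone1, 2 were higher and 3 lower (7.25%, against 12.7% of all genes), and in clone2 13 were higher and 15 lower (40.6%, against 33.1% of all genes), with a median of -0.12 on the log2 scale in clone2. Among 22 other interferon-stimulated genes, 5 rose and 3 fell in clone2 (36.4%). Ifi27l2a, a neighbour and relative of Ifi27, rose by 3.60 ± 0.70 (edgeR adjusted p = 1.67e-04), from 0.598 ± 0.284 CPM in Scrambled to 7.36 ± 5.31 in clone2 (SD, n = 3 and 9), and Herc6, the mouse ligase for Isg15, by 1.42 ± 0.39 (edgeR adjusted p = 0.00448). Ifitm1, which blocks virus entry, fell by 1.79 ± 0.36 (edgeR adjusted p = 7.15e-04), and Irgm1, a GTPase induced by interferon gamma, fell by 1.04 ± 0.27 (edgeR adjusted p = 0.00278). The other 14 of the 22 did not change past the threshold in clone2.

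Of 12 tested genes of the receptors and JAK-STAT relay, 3 rose and 2 fell in clone2 (41.7%, against 33.1% of all genes). The receptor chains for interferon gamma went opposite ways there: Ifngr2 rose by 0.73 ± 0.18 (edgeR adjusted p = 0.00157) and Ifngr1 fell by 1.13 ± 0.17 (edgeR adjusted p = 3.08e-06). Of 11 sensors and upstream kinases, 1 rose and 3 fell in clone2 (36.4%), and the median change of the 11 was -0.32 on the log2 scale. Sting1, the adaptor of cytosolic DNA sensing, rose from 93.1 to 104 CPM in Scrambled to between 168 and 218 in clone2, a log2 change of 0.90 ± 0.11 (edgeR adjusted p = 6.01e-08). Sting1 lies on chromosome 18, whose 291 tested genes had a median log2 change of 0.47 in clone2 and 0.06 in clone1, and the part of this shift in its rise was not tested. Chromosome 17, with 9 of the members, had a median log2 change of -0.001 over 588 genes in clone2.

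Among 13 other class I genes, 4 rose and 5 fell in clone2 (69.2%, against 33.1% of all genes). The non-classical heavy chain H2-Q2 rose by 1.14 ± 0.26 (edgeR adjusted p = 8.94e-04) and the proteasome activator Psme2 by 0.66 ± 0.11 (edgeR adjusted p = 5.20e-06). The peptide-trimming protease Erap1 fell, with -1.21 ± 0.25 (edgeR adjusted p = 2.29e-04), as did H2-Q1 with -1.20 ± 0.38 (edgeR adjusted p = 0.0195). In the libraries labelled shYAP, 3 of 64 tested genes of this list rose and 7 fell (15.6%, against 11.4% of all genes). The chaperone Calr rose there by 0.98 ± 0.18 (edgeR adjusted p = 0.00104), and the membrane protein Ifitm3 fell by 2.09 ± 0.20 (edgeR adjusted p = 7.14e-07) and its relative Ifitm1 fell by 1.58 ± 0.16 (edgeR adjusted p = 1.71e-06). Ifitm3 went from between 276 and 549 CPM in shControl to between 87.8 and 101 in shYAP. Of the H2-Q genes, which resemble one another and H2-K1, H2-Q1 fell by 2.32 ± 0.55 (edgeR adjusted p = 0.0136) and H2-Q2 fell by 1.63 ± 0.37 (edgeR adjusted p = 0.00819).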

How the data were processed

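RNA-seq libraries of 34 samples were analysed from the deposited table of expected counts per gene, whole numbers that the authors made with Salmon 1.3.0 on mm10, per the submitters' processing notes. The steps that turned transcript estimates into gene counts and the annotation release are not given in the sources used here. The library preparation kept strand, per the labels' protocols; the strand setting of the counting is not given in the sources used here. Gene coordinates came from GENCODE M21 (mm10), which held 51485 of the 54354 gene identifiers, and promoter windows from RefSeq (GRCm38.p6). Rows without a gene name held at most 0.0475% of a library's counts and were kept under their gene identifier.

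Fits used edgeR 4.0.16 in R 4.3.3 (TMM scaling, filterByExpr with a minimum count of 10, robust quasi-likelihood, Benjamini-Hochberg over all genes tested) for the knockout experiment (21 libraries, 11514 genes), the hairpin experiment (13 libraries, 11094 genes) and all 34 libraries (11960 genes). The procedure was tested on simulated data in which libraries varied independently, so the likeness within runs was not covered. limma 3.58.1 and DESeq2 1.42.0 served as alternatives, beside another filter, threshold and normalization, left-out libraries, the replicate number as a block, runs of libraries, and other control libraries. Runs were defined from earlier results of these data, since the labels name no batch. Same-numbered libraries of different groups had correlations from -0.136 to 0.220, so the numbers were not taken to pair them. No 2 libraries were identical.

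The members and the lists were chosen with earlier results of these data known. Values in every library are given, per comparison, for up to 5 members that rose and 5 that fell by the most among those called (mean log2 CPM 1 or above), and for H2-K1, H2-D1, B2m, Cd74, Psmb8 and Irf7; of other pathway genes, up to 4 of each list were named by size of change under the same minimum.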

Additional observations from a re-analysis of the deposited data

Results flagged for a closer look

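In 4 of the 72 groups of libraries examined, a single library lay far from the others of its group, where chance gives about 1 in 20. H2-Ab1 was at 9.27 CPM in shControl replicate 7, with 4.60 as the next highest, and at 0.595 CPM in clone1 replicate 7, with 0.206 as the next. Ifih1 was at 6.51 CPM in clone1 replicate 6, with 3.65 as the next. Ifi35 was at 18.19 CPM in shControl replicate 3, with 35.8 as the next lowest, and that library is 1 of the 2 shallow ones.

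The knockout effect differed from the shYAP effect for 6 of 24 tested members (25%), beside 18.8% of all genes. The difference in log2 fold change was 3.08 for Usp18, 2.28 for Ifi27, 0.74 for H2-K1, 0.70 for Xaf1, -0.76 for Bst2 and -1.05 for H2-D1.

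The effects of the 2 clones differed for 12 of 23 tested members (52.2%), close to the 49.1% of all genes. Clone2 was above clone1 on the log2 scale by 3.19 for Oas1a, 2.17 for Parp14, 1.98 for Psmb9, 1.96 for Usp18, 1.24 for Ifi27, 0.94 for Irf9, 0.91 for Irf1, 0.91 for Parp9, 0.82 for Stat2, 0.81 for B2m and 0.71 for H2-D1, and it stood at -0.46 for Tapbp.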

How the results depend on the processing

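Of 64 results for single members, 46 were past the threshold, and 23 of these were past it under each alternative run for them. Alternatives in which a gene had no adjusted p were not counted. For clone2 against clone1, Psmb9 had 9 alternatives where B2m had 11. The threshold of 0.01 was not applied to these results. Over 878 recomputed values for these results, 751 kept direction and call, 102 lost the call, 23 gained it and 2 turned sign: B2m in clone2 at -0.39 with knockout replicates 7 to 9 alone, and B2m in shYAP at -0.39 against shControl replicates 1 to 4. The number of members called with both clones weighted equally (7) was 4 at a threshold of 0.01, 3 in limma with runs as a random block, and 4 to 6 with a library left out. In clone1 (10) it was 4 at 0.01, 4 in limma with runs as a block, 5 in 1 fit of all 34 libraries, 6 with only the compared groups in the fit, and 4 to 5 with a library left out. In shYAP (3) it was 8 against shControl replicates 1 to 4 alone and 2 with any shYAP library left out. Between Scrambled and shControl (0) it was 1 in DESeq2, 1 with the replicate block, 3 and 2 with shControl replicates 1 to 4 and 5 to 10 alone, and 1 with only the compared groups. For the knockout effect minus the shYAP effect (6) it was 3 in limma with runs as a block and 4 to 7 with a library left out. In clone2 it stayed at 8 with any Scrambled library left out. Calls over all genes moved in these settings too. With both clones weighted equally (2027) they were 1184, 909 and 1208 to 1374 in the order given. In clone1 (1459) they were 757, 457, 1168, 1440 and 779 to 1025. In shYAP (1261) they were 2604 and 412 to 515. Between Scrambled and shControl (354) they were 504, 450, 1457, 386 and 191. For the difference of effects (2253) they were 745 and 1584 to 1824, and in clone2 (3811) 2904 to 2975. The score in clone2 was 0.393 over the members that passed the filter, and at a prior count of 0.5 the score was -0.187 in shYAP, -0.349 in clone1 (from -0.240) and 0.0343 in Scrambled (from -0.0115, a change of sign). The cause of these shifts was not tested. With the replicate number as a block, the calls were 5 with both clones weighted equally, 7 in clone1, 7 in clone2, 13 between the clones, 4 in shYAP and 7 for the difference of effects. Over all genes they were 1609, 1350, 2955, 5556, 1730 and 2142 in the same order. Libraries share only a number. Of the 38 members, 14 had too few counts for a test under the filter used.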
